A study of Mus musculus with 15 samples.

Results

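Phase II conjugation enzymes attach a small polar molecule to a drug, a hormone, a bile acid or a reactive lipid product, and their mRNA was followed here in mouse liver across diet and age. The 45 genes are all those of the array with 1 gene symbol that belong to 3 families by name. They comprise 19 cytosolic and mitochondrial glutathione S-transferases (Gst genes), 10 UDP-glucuronosyltransferases (Ugt genes) and 16 sulfotransferases (Sult genes), out of 19938 genes in all, and pseudogene symbols were left out. GeneChip Mouse Gene 1.0 ST arrays, 3 per group, were read with RNA from frozen livers of male C57BL/6J mice, and the values are log2 signals per transcript cluster, the set of probes along a gene. Each group of 3 arrays is named by diet and age, and the labels name no engineered allele for any of them. The Ath+HF+BCAA group received an atherogenic and high-fat diet with 3% BCAA, the branched-chain amino acids valine, leucine and isoleucine, at 68w after 60 weeks of diet and at 38w after 30 weeks. The Ath+HF group received the atherogenic and high-fat diet alone, with the same ages and durations. The basal diet group was measured at 38w, after 30 weeks of diet. The Ath+HF diet is a model of nonalcoholic steatohepatitis, and the 68w point was set to follow liver tumors. The model was induced by diet, and each array reads whole liver rather than one cell type.

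Glutathione S-transferases join the tripeptide glutathione to electrophiles, and their classes are named by Greek letters, such as alpha (Gsta), mu (Gstm), pi (Gstp) and theta (Gstt). UDP-glucuronosyltransferases transfer a sugar, usually glucuronic acid from UDP-glucuronic acid, to bilirubin, steroids, bile acids and drugs, and the Ugt3a enzymes are known in human to use other sugars. Sulfotransferases transfer sulfate from the donor PAPS to phenols, amines, steroids and bile acids. The hepatocyte is the main site of all 3 families in liver, and several Gst genes are known targets of the antioxidant factor Nrf2, encoded by Nfe2l2. In mice, several Sult2a and Sult3a genes are expressed mainly in female liver, while all mice here were male.

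The median log2 signal of the 15 arrays lay between 6.91 and 7.04 at 38w and between 7.1 and 7.16 at 68w, so the ages did not overlap. Hepatocyte markers were present in every array, and the summed linear signal of 11 of them ranged from 98500 to 106100 in the Ath+HF+BCAA group at 68w, 122100 to 126900 in the Ath+HF group at 68w, and 105900 to 119200 in the arrays of 38w. The sum of 11 macrophage markers was 17340 to 21720 in the Ath+HF+BCAA group at 68w and 3442 to 4088 in the Ath+HF group at 68w. At 38w this sum was 10900 to 16550 in the Ath+HF+BCAA group, 13750 to 16430 in the Ath+HF group and 5546 to 6023 in the basal diet group. The arrays labelled Ath+HF 68w thus lay below the basal diet arrays in this sum, whereas the Ath+HF arrays of 38w lay above them. Singly, 4 of the 11 markers were called lower in the Ath+HF group at 68w than with basal diet. In that comparison 1 was called higher and 6 were not called, with a median log2 fold change of -0.28. Of all genes, 38.1% were called there, 19% higher and 19.1% lower. Of 5 fetal and tumor liver markers, 2 were called higher under the label Ath+HF+BCAA 68w than under Ath+HF 68w. These were Ly6d at 11.07 ± 0.13 against 8.82 ± 0.52 and Cd24a at 9.98 ± 0.28 against 7.04 ± 0.36 (SD, n = 3 each). Afp, Gpc3 and Igf2 were not called between these 2 groups, where 36.2% of all genes were called, 19.8% higher and 16.4% lower. The stellate cell marker Pdgfrb was at 9.71 ± 0.02 under the label Ath+HF+BCAA 68w and 8.14 ± 0.16 under Ath+HF 68w, and the cholangiocyte marker Epcam at 7.86 ± 0.11 under Ath+HF+BCAA 68w and 6.11 ± 0.31 under Ath+HF 68w. Whether the labels of the 68w groups are right was not tested. The groups are named by their labels throughout, and every direction between the 68w groups would turn if these were exchanged. In that case the values of the 68w groups against basal diet would belong to the other diet, and the comparisons of age would no longer lie within a diet. Comparisons among the 38w groups do not use these arrays, apart from their share in the estimate of the spread. Basal diet arrays were used at 38w alone, so age, time on the diet and batch cannot be told apart wherever 68w arrays are set against 38w arrays.

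The first question was whether BCAA in the Ath+HF diet went with other levels of these enzymes at 68w. In the Ath+HF+BCAA group against the Ath+HF group, 14 of the 45 genes were higher and 8 lower at an adjusted p under 0.05 (limma, Benjamini-Hochberg over all 19938 genes). These are 48.9% of the family members, where 36.2% of all genes were called, 19.8% higher and 16.4% lower. The families differed in composition. Of 19 Gst genes, 9 were higher and 1 lower, with a median log2 fold change of 0.34, and without Ath+HF array 3 of 68w 6 were higher and 1 lower. Of 10 Ugt genes, 3 were higher and 4 lower, with a median of -0.11, and of 16 Sult genes, 2 were higher and 3 lower, with a median of -0.17. The median over all genes was -0.09. A difference of more than 1 log2 unit was reached by the higher genes Gstm3, Gsta4, Sult1e1, Gstm2 and Gstm4, and by the lower genes Sult2a8, Ugt3a1 and Ugt2b1. The arrays of the diets did not overlap at 68w for 27 of the 45 genes, 13 higher and 14 lower, and for 58.7% of all genes (25.9% higher and 32.8% lower). In whole liver, fewer cells of a type and less RNA per cell cannot be told apart. In the same comparison 6 of 11 hepatocyte markers were lower and none was higher. Higher were 9 of 11 macrophage, 7 of 9 stellate cell, 5 of 7 endothelial and 4 of 5 cholangiocyte markers. So were 5 of 6 T and NK cell, 2 of 6 neutrophil and 1 of 3 B cell markers. Ath+HF+BCAA array 2 of 68w stood apart in its group, with a T and NK cell marker sum of 2275 against 996.3 and 1061. Its neutrophil marker sum was 2072 against 780.7 and 757.3. The part of all these markers in the results below was not tested.

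**Figure D1:**
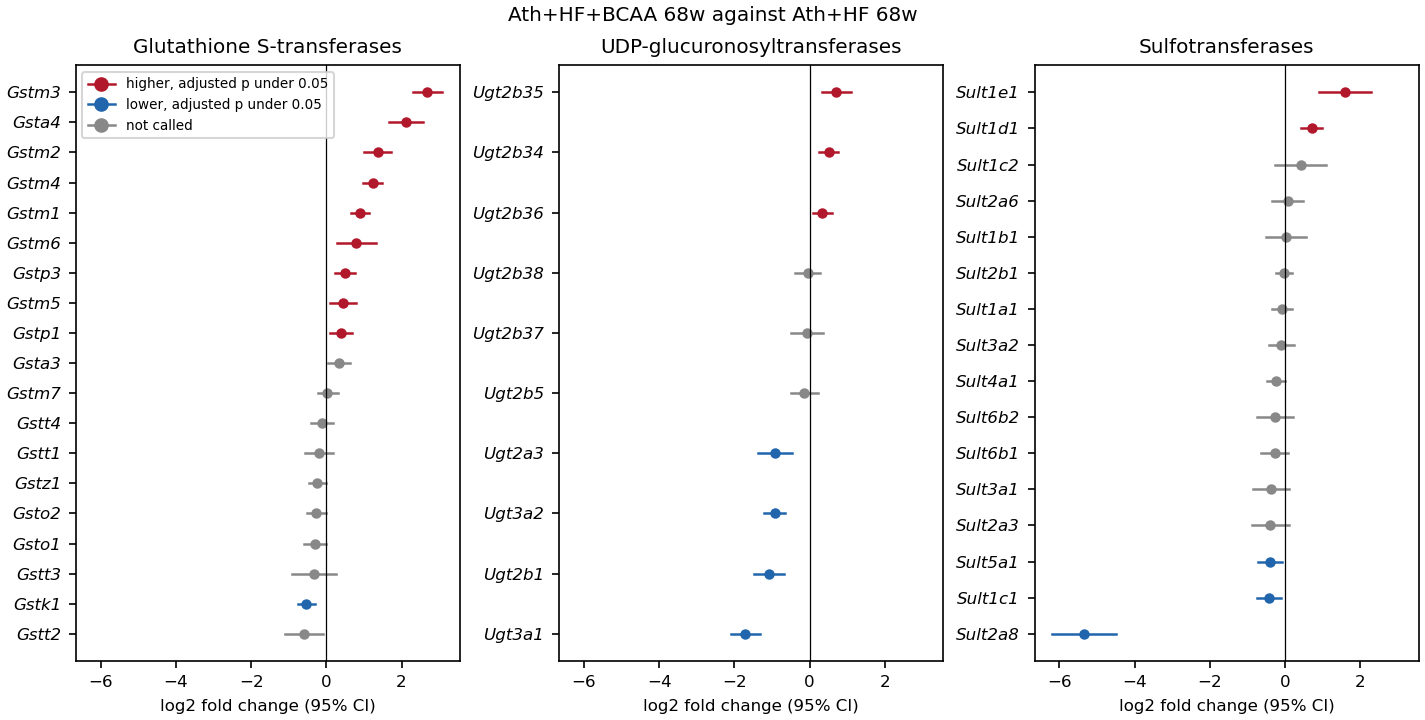
Log2 fold change of each gene between the Ath+HF+BCAA group and the Ath+HF group at 68w (points, with 95% confidence intervals), with the 3 families in separate panels. Gstm3 stands highest at 2.69 and Sult2a8 lowest at -5.35, and the Gst panel holds 9 of the 14 genes that were higher.

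The mu class held 6 of the 9 Gst genes that were higher. Gstm3, a mu class enzyme of mouse liver, changed most, as read from the brighter of its 2 clusters. Its log2 signals were 13.63, 13.77 and 13.58 in the Ath+HF+BCAA arrays of 68w and 11.16, 10.90 and 10.83 in the Ath+HF arrays of 68w. At 38w it had 11.17, 11.15 and 11.69 with Ath+HF+BCAA, 11.52, 11.96 and 11.44 with Ath+HF and 10.96, 11.32 and 10.59 with basal diet. All 3 arrays of the Ath+HF+BCAA group at 68w thus lay above each of the other 12, and the log2 fold change against the Ath+HF group was 2.69 (standard error 0.19, adjusted p = 3.66e-08 from limma), which is 6.47-fold. Against the basal diet group it was 2.70 (standard error 0.19, adjusted p = 3.53e-08 from limma) in the Ath+HF+BCAA group at 68w and 0.01 (standard error 0.19, adjusted p = 0.983 from limma) in the Ath+HF group at 68w.

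Gstm1, an abundant mu class enzyme of hepatocytes, had 13.83, 13.78 and 13.82 in the Ath+HF+BCAA group and 13.08, 12.78 and 12.88 in the Ath+HF group at 68w. The arrays of 38w read 12.77, 12.74 and 12.83 for Ath+HF+BCAA, 13.01, 13.15 and 12.89 for Ath+HF and 12.79, 12.87 and 12.48 for basal diet. Again the Ath+HF+BCAA arrays of 68w were apart from all others, by 0.90 (standard error 0.11, adjusted p = 1.31e-05 from limma) against Ath+HF. Gstm2 had 10.78, 10.81 and 10.92 with Ath+HF+BCAA and 9.72, 9.47 and 9.20 with Ath+HF at 68w. The arrays of 38w gave 9.56, 9.68 and 9.84 with Ath+HF+BCAA, 9.85, 9.98 and 9.77 with Ath+HF and 9.74, 10.03 and 9.23 with basal diet. The change of Gstm2 at 68w was 1.37 (standard error 0.17, adjusted p = 1.13e-05 from limma), and all 3 high arrays again carried the same label. Gstm4 rose by 1.23 (standard error 0.12, adjusted p = 9.22e-07 from limma), with a mean of 12.09 ± 0.01 in the Ath+HF+BCAA group and 10.86 ± 0.16 in the Ath+HF group (SD, n = 3 each).

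The remaining mu class genes changed less or passed no test between the diets at 68w. Genes of this class are close in sequence and may share array probes. Gstm6 averaged 10.74 ± 0.21 with Ath+HF+BCAA and 9.94 ± 0.43 with Ath+HF at 68w (SD, n = 3 each), a rise of 0.80 (standard error 0.25, adjusted p = 0.019 from limma). Gstm5 averaged 8.35 ± 0.20 with Ath+HF+BCAA and 7.91 ± 0.31 with Ath+HF, a rise of 0.44 (standard error 0.17, adjusted p = 0.0475 from limma). Both calls were lost when Ath+HF array 3 of 68w was left out, that of Gstm6 also without Ath+HF+BCAA array 2 or 3, and that of Gstm5 under most settings. Gstm7 read 10.63, 10.62 and 10.99 with Ath+HF+BCAA and 10.91, 10.64 and 10.58 with Ath+HF at 68w. At 38w Gstm7 read 10.37, 10.25 and 10.44 with Ath+HF+BCAA, 10.38, 10.41 and 10.11 with Ath+HF and 10.35, 10.48 and 10.49 with basal diet. The 68w groups overlapped for Gstm7, with a difference of 0.03 and a 95% confidence interval of -0.23 to 0.30. Each 68w group was instead above its 38w counterpart, by 0.39 with Ath+HF+BCAA (adjusted p = 0.0228 from limma) and by 0.41 with Ath+HF (adjusted p = 0.0183 from limma). Both Gstm7 calls were lost with the array medians set equal and without single arrays, Ath+HF array 1 of 68w or 3 of 38w and Ath+HF+BCAA array 3 of 68w or 2 of 38w.

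Of the alpha class, Gsta4, which conjugates the lipid peroxidation product 4-hydroxynonenal, moved most. It had 11.96, 11.79 and 11.94 in the Ath+HF+BCAA arrays of 68w and 10.32, 9.64 and 9.34 in the Ath+HF arrays of 68w. Values of 38w were 10.48, 10.13 and 10.82 with Ath+HF+BCAA, 10.83, 10.84 and 10.63 with Ath+HF and 10.13, 10.44 and 9.95 with basal diet. The log2 fold change at 68w was 2.13 (standard error 0.21, adjusted p = 1.35e-06 from limma), or 4.38-fold, made of a rise of 1.73 over basal diet in the Ath+HF+BCAA group (standard error 0.21, adjusted p = 8.68e-06 from limma) and a value of -0.40 in the Ath+HF group (standard error 0.21, adjusted p = 0.145 from limma). Gsta3, an alpha class enzyme that inactivates aflatoxin epoxide in mice, read 12.54, 12.53 and 12.62 with Ath+HF+BCAA and 12.41, 12.19 and 12.07 with Ath+HF at 68w. The Gsta3 arrays of 38w read 12.09, 12.20 and 12.65 with Ath+HF+BCAA, 12.64, 12.63 and 12.50 with Ath+HF and 12.76, 12.92 and 12.53 with basal diet. The 68w groups did not overlap, but the difference of 0.34 (standard error 0.14, adjusted p = 0.0714 from limma) did not pass the threshold. Against basal diet, Gsta3 fell by 0.51 in the Ath+HF group at 68w (standard error 0.14, adjusted p = 0.0105 from limma), a call lost without array 3 of that group.

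The signals of Gsta1 and Gsta2, near-identical alpha class genes, could be read only through 4 transcript clusters that both share with the predicted genes Gm10639 and Gm3776, so they are not among the 45. One of these had 13.07, 13.08 and 12.86 with Ath+HF+BCAA and 9.17, 8.21 and 8.18 with Ath+HF at 68w. At 38w the log2 signals were 10.23, 9.44 and 10.60 with Ath+HF+BCAA, 10.82, 10.88 and 9.67 with Ath+HF and 9.26, 10.21 and 8.62 with basal diet. Each of the 4 clusters was higher in the Ath+HF+BCAA group at 68w, by 3.85 to 4.48 on the log2 scale against Ath+HF, with adjusted p of 9.51e-06 to 1.45e-05 (limma, over all 35556 clusters). Gstm3 also has a second cluster of its own. That cluster read 14.04, 14.01 and 14.02 with Ath+HF+BCAA and 9.40, 8.38 and 9.33 with Ath+HF at 68w, higher by 4.99 log2 units (standard error 0.43, adjusted p = 3.55e-06 from limma, over all clusters). Both Gstm3 clusters moved the same way. The cluster used for the counts, the one with the higher mean over all arrays, gave the smaller difference. The sources used here give no coordinates for either cluster. In the numbering of the array's clusters, the second one falls between those of Gstm6 and Gstm2, genes of chromosome 3. The counted one is numbered closest, among the 45 genes, to the cluster of Sult3a1, a gene of chromosome 10. A number is not a coordinate, so whether the counted cluster reads the Gstm3 gene of chromosome 3 or a copy elsewhere was not settled. At 14.01 to 14.04 the second cluster lay near the top of arrays whose highest cluster read 14.44 to 14.47, where signals are compressed, so its difference may be understated and the sizes of both are not compared further.

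**Figure D2:**
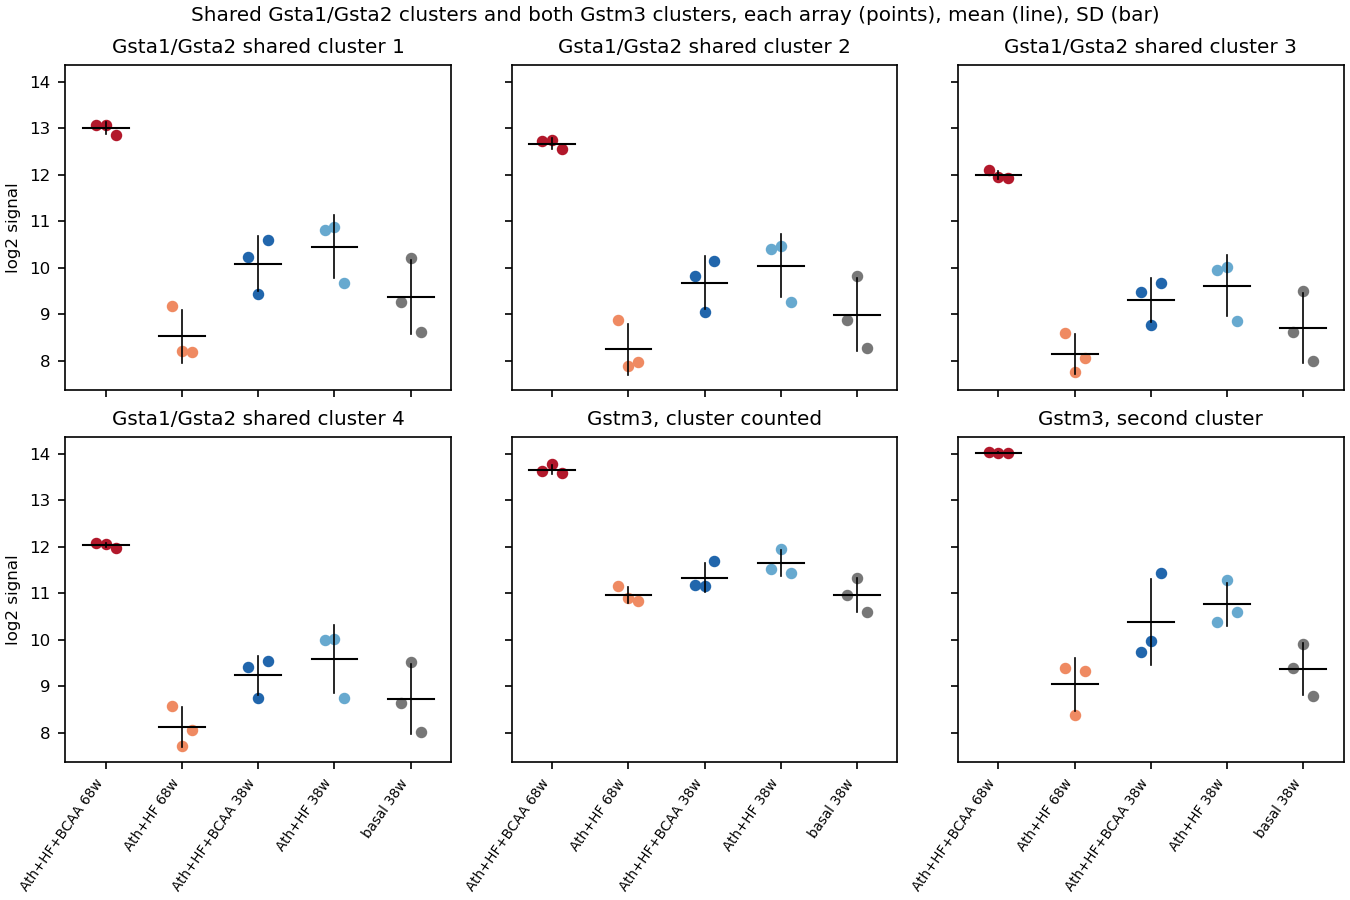
Log2 signal in each array (points) of the 4 clusters shared by Gsta1 and Gsta2 and of both Gstm3 clusters, with the group mean (line) and SD (bar), 3 arrays per group. The Ath+HF+BCAA arrays of 68w lie above all others in every panel, and the second Gstm3 cluster reads between 14.01 and 14.04 there.

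Upstream sequences of Gstm3 and Gstm1, 2 mu class genes of chromosome 3, are given because both were higher at 68w with Ath+HF+BCAA. They were taken from RefSeq (GRCm38.p6), which gave windows for 41 of the 45 genes. The 150 bases before the start site are chr3:107969175-107969324 for Gstm3 and chr3:108017819-108017968 for Gstm1, both on the minus strand and written 5′ to 3′. A run of 8 or more bases found in the upstream 250 bases of both genes would be in capitals, and none lies in these stretches.
Gstm3: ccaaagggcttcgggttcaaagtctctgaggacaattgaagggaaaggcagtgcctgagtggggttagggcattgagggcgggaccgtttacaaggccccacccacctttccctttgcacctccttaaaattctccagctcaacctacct
Gstm1: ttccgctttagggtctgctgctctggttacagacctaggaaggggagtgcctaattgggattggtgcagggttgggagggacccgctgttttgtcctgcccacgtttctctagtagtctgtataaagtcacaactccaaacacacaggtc
The antioxidant response element core TGACNNNGC, searched on both strands, was in 3 of 52 windows of these genes (250 bases before to 50 after a start site) and in 12.4% of all 32851 windows of the table. The 3 windows belong to Gsta3, Gstm5 and Gstm7. Those of Gstm1, Gstm2, Gstm3 and Gstm4 hold no such letters, and Gsta4 is not in the table. The Gsta3 window is given because it is the alpha class window with the core, shown in capitals, on the plus strand at chr1:21240435-21240584.
Gsta3: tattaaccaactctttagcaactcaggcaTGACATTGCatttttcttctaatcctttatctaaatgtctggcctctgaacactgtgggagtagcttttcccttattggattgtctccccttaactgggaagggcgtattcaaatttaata
The xenobiotic response element core GCGTG was in 9 of the 52 windows, of 7 genes, and in 32.4% of all windows. A match describes letters and is not evidence of binding.

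Among the other Gst classes, Gstp3, a pi class gene, was highest in both 68w groups. It had 9.33, 9.27 and 9.36 with Ath+HF+BCAA and 8.98, 8.95 and 8.56 with Ath+HF at 68w. Signals at 38w were 8.00, 7.71 and 8.00 with Ath+HF+BCAA, 7.62, 7.67 and 7.56 with Ath+HF and 8.04, 8.30 and 8.21 with basal diet. No 68w array overlapped with any 38w array, and the difference at 68w between the diets was 0.49 (standard error 0.12, adjusted p = 0.00469 from limma). Gstp1, the main pi class enzyme of mouse liver, had 13.34, 13.06 and 13.29 with Ath+HF+BCAA and 13.08, 12.82 and 12.60 with Ath+HF at 68w. Its arrays of 38w read 13.21, 13.19 and 13.08 with Ath+HF+BCAA, 13.11, 13.35 and 13.30 with Ath+HF and 12.76, 12.79 and 13.15 with basal diet. The 68w groups overlapped by 1 array, and the difference was 0.40 (standard error 0.13, adjusted p = 0.0307 from limma), a call lost without either of 2 Ath+HF arrays or either of 2 Ath+HF+BCAA arrays of 68w. Both clusters that Gstp1 shares with Gstp2 were also higher, by 0.55 and 0.58 on the log2 scale.

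Gstk1, the kappa class enzyme of mitochondria and peroxisomes, went the other way. It read 11.90, 11.75 and 12.12 with Ath+HF+BCAA and 12.51, 12.49 and 12.37 with Ath+HF at 68w. The 38w arrays showed 12.38, 12.34 and 12.31 with Ath+HF+BCAA, 12.60, 12.32 and 12.37 with Ath+HF and 12.58, 12.63 and 12.51 with basal diet. Its fall at 68w was 0.53 on the log2 scale (standard error 0.11, adjusted p = 0.000942 from limma), and it was the only Gst gene called lower between these groups. Gstz1, an isomerase of tyrosine breakdown, had 11.25, 11.27 and 11.68 with Ath+HF+BCAA and 11.62, 11.68 and 11.61 with Ath+HF at 68w. Its values of 38w were 11.88, 11.93 and 11.86 with Ath+HF+BCAA, 11.99, 11.97 and 11.80 with Ath+HF and 12.02, 12.09 and 11.94 with basal diet. The diets overlapped at 68w for Gstz1 (-0.24, adjusted p = 0.106 from limma), and both lay below basal diet, by 0.62 with Ath+HF+BCAA (standard error 0.11, adjusted p = 0.000299 from limma) and by 0.38 with Ath+HF (standard error 0.11, adjusted p = 0.0141 from limma).

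Gstt2, a theta class enzyme, had 9.21, 9.52 and 9.48 with Ath+HF+BCAA and 10.08, 9.92 and 9.98 with Ath+HF at 68w. At 38w the arrays read 9.49, 9.34 and 8.20 with Ath+HF+BCAA, 8.97, 9.33 and 9.15 with Ath+HF and 9.22, 9.26 and 9.32 with basal diet. The Ath+HF arrays of 68w were the highest, 0.73 above basal diet on the log2 scale (standard error 0.23, adjusted p = 0.0236 from limma), and the call was lost with the array medians set equal and without either of 2 arrays of each group. Ath+HF+BCAA array 3 of 38w stood low. The 5 other Gst genes, Gstt1, Gstt3, Gstt4, Gsto1 and Gsto2, passed no test in any comparison. Their difference at 68w lay between -0.32 for Gstt3 and -0.11 for Gstt4, and Gstt4 had a mean log2 signal under 6, a level near the dim end of the array.

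The Ugt genes split into members that were lower in the Ath+HF+BCAA group and members that were higher in it. Ugt3a1, known in human to use N-acetylglucosamine, had 8.98, 9.36 and 9.72 with Ath+HF+BCAA and 11.24, 11.27 and 10.67 with Ath+HF at 68w. Log2 signals of 38w were 11.66, 11.69 and 11.57 with Ath+HF+BCAA, 11.75, 11.58 and 11.40 with Ath+HF and 12.20, 12.14 and 11.96 with basal diet. No array of the Ath+HF+BCAA group at 68w reached any other array, and the change against Ath+HF was -1.71 (standard error 0.18, adjusted p = 1.96e-06 from limma). The Ath+HF group at 68w was itself below basal diet, by 1.04 (standard error 0.18, adjusted p = 0.000469 from limma).

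Ugt3a2 had 11.06, 11.06 and 11.58 with Ath+HF+BCAA and 12.18, 12.25 and 12.05 with Ath+HF at 68w. Its 38w values were 12.41, 12.42 and 12.17 with Ath+HF+BCAA, 12.36, 12.26 and 12.11 with Ath+HF and 12.37, 12.43 and 12.26 with basal diet. Here the low values were limited to the Ath+HF+BCAA arrays of 68w, 0.93 below Ath+HF (standard error 0.13, adjusted p = 5.12e-05 from limma). Both clusters that Ugt3a1 and Ugt3a2 share fell too, by 1.13 and 1.17 on the log2 scale.

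Ugt2b1, a steroid and drug conjugating enzyme of mouse hepatocytes, read 10.27, 10.08 and 10.69 with Ath+HF+BCAA and 11.42, 11.89 and 10.94 with Ath+HF at 68w. At 38w it had 12.29, 12.41 and 12.55 with Ath+HF+BCAA, 12.36, 12.26 and 12.09 with Ath+HF and 12.23, 12.21 and 12.31 with basal diet. The 3 levels of Ath+HF+BCAA at 68w, Ath+HF at 68w and the 38w arrays did not overlap, and the difference between the diets at 68w was -1.07 (standard error 0.19, adjusted p = 0.00038 from limma). Ugt2a3 had 9.85, 10.05 and 10.48 with Ath+HF+BCAA and 11.38, 11.33 and 10.45 with Ath+HF at 68w. The arrays of 38w gave 11.72, 11.81 and 11.93 with Ath+HF+BCAA, 11.92, 11.76 and 11.71 with Ath+HF and 12.16, 11.97 and 11.70 with basal diet. Array 3 of the Ath+HF group at 68w lay within the range of the Ath+HF+BCAA group, and the difference was -0.92 (standard error 0.21, adjusted p = 0.003 from limma).

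Ugt2b34, Ugt2b35 and Ugt2b36 were lowest in the Ath+HF group at 68w. Ugt2b34 had 12.19, 12.29 and 12.30 with Ath+HF+BCAA and 11.78, 11.96 and 11.51 with Ath+HF at 68w. Its arrays of 38w read 12.20, 12.11 and 12.28 with Ath+HF+BCAA, 12.33, 12.25 and 12.09 with Ath+HF and 12.36, 12.24 and 12.11 with basal diet. The Ath+HF+BCAA group at 68w was within the range of 38w, 0.02 from basal diet with a 95% confidence interval of -0.22 to 0.27, and 0.51 above Ath+HF (standard error 0.12, adjusted p = 0.00269 from limma). Ugt2b35 had 10.37, 10.63 and 10.52 with Ath+HF+BCAA and 9.94, 10.13 and 9.31 with Ath+HF at 68w. Values of 38w were 10.91, 11.08 and 10.82 with Ath+HF+BCAA, 10.79, 10.73 and 10.38 with Ath+HF and 10.45, 10.32 and 9.96 with basal diet. The diets did not overlap at 68w for Ugt2b35, with a difference of 0.71 (standard error 0.19, adjusted p = 0.00725 from limma). Ugt2b36 had 12.50, 12.67 and 12.65 with Ath+HF+BCAA and 12.32, 12.45 and 12.01 with Ath+HF at 68w. At 38w the log2 signals were 12.91, 12.98 and 12.92 with Ath+HF+BCAA, 12.94, 12.92 and 12.89 with Ath+HF and 12.92, 12.93 and 12.58 with basal diet. The rise of 0.34 (standard error 0.12, adjusted p = 0.033 from limma) was lost without Ath+HF array 3 of 68w or without Ath+HF+BCAA array 2 or 3.

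Ugt2b5, Ugt2b37 and Ugt2b38 were lower than basal diet in both 68w groups and passed no test between them. Ugt2b5 read 11.08, 11.14 and 11.21 with Ath+HF+BCAA and 11.21, 11.68 and 10.95 with Ath+HF at 68w. Signals at 38w were 11.80, 12.16 and 12.01 with Ath+HF+BCAA, 12.09, 12.08 and 11.98 with Ath+HF and 12.13, 12.06 and 11.61 with basal diet. The difference between the diets at 68w was -0.14, with a 95% confidence interval of -0.49 to 0.22. Ugt2b38 read 9.62, 9.81 and 9.67 with Ath+HF+BCAA and 9.59, 10.18 and 9.47 with Ath+HF at 68w. The 38w arrays showed 10.45, 10.85 and 10.49 with Ath+HF+BCAA, 10.62, 10.81 and 10.55 with Ath+HF and 10.66, 10.60 and 10.59 with basal diet. The fall from basal diet was 0.92 with Ath+HF+BCAA (standard error 0.16, adjusted p = 0.000191 from limma) and 0.87 with Ath+HF (standard error 0.16, adjusted p = 0.000667 from limma), and the diets differed at 68w by -0.05 (95% confidence interval -0.38 to 0.29). Ugt2b37 read 6.90, 6.96 and 6.94 with Ath+HF+BCAA and 6.88, 7.33 and 6.80 with Ath+HF at 68w. At 38w the arrays read 8.30, 8.53 and 8.12 with Ath+HF+BCAA, 7.89, 8.03 and 7.16 with Ath+HF and 7.98, 7.69 and 8.19 with basal diet. The diets differed at 68w by -0.07 (95% confidence interval -0.50 to 0.35).

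These 3 genes also had the most alike upstream sequences of the Ugt2 genes. Over the 250 bases before the start, Ugt2b37 and Ugt2b38 were 85.2% identical in a global alignment, Ugt2b38 and Ugt2b5 81.5%, and Ugt2b37 and Ugt2b5 73.0%, where the median over 28 pairs of Ugt2 windows was 52.6%. Close copies can also share array probes, so their signals are not independent. The 150 bases before the start are shown for them, and for Ugt2b1 and Ugt2b34, which moved in opposite directions at 68w. Capitals mark runs of 8 or more bases found in the upstream windows of all of Ugt2b5, Ugt2b37 and Ugt2b38, and a run at the left edge may begin before the stretch. All are on the minus strand (RefSeq, GRCm38.p6), at chr5:87140341-87140490, chr5:87254789-87254938, chr5:87424204-87424353, chr5:86926504-86926653 and chr5:86906938-86907087.
Ugt2b5: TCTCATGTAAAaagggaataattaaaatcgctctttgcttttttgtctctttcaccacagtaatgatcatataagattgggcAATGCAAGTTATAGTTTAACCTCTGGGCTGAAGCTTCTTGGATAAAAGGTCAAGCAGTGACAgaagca
Ugt2b37: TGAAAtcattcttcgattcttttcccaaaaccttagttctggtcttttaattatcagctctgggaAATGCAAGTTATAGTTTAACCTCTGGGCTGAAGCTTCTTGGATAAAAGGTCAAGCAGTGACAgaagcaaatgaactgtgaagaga
Ugt2b38: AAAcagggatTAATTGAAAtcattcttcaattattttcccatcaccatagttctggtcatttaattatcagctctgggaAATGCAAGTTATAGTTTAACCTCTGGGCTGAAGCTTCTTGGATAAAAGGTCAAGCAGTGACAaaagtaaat
Ugt2b1: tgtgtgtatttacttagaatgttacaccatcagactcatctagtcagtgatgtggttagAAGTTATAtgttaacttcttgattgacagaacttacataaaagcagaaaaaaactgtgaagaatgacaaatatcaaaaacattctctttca
Ugt2b34: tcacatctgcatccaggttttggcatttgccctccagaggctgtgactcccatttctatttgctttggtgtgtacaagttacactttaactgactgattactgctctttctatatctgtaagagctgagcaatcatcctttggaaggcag
A single run of 62 bases was identical in Ugt2b5, Ugt2b37 and Ugt2b38, and ended 6, 23 and 9 bases before their start sites in this order. Ugt2b1 held 8 such bases in its stretch and Ugt2b34 held 0.

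The 8 genes of the Ugt1a locus, which share their last exons, were read by 1 common cluster that is not among the 45. It had 10.93, 10.87 and 10.94 with Ath+HF+BCAA and 11.03, 10.93 and 10.85 with Ath+HF at 68w. Log2 signals of 38w were 10.79, 10.82 and 10.74 with Ath+HF+BCAA, 10.93, 10.82 and 10.75 with Ath+HF and 11.18, 11.12 and 10.76 with basal diet. The groups overlapped, and the difference at 68w was -0.02 (standard error 0.11, adjusted p = 0.905 from limma, over all clusters), a level summed over the locus that cannot show a change of 1 member.

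**Figure D3:**
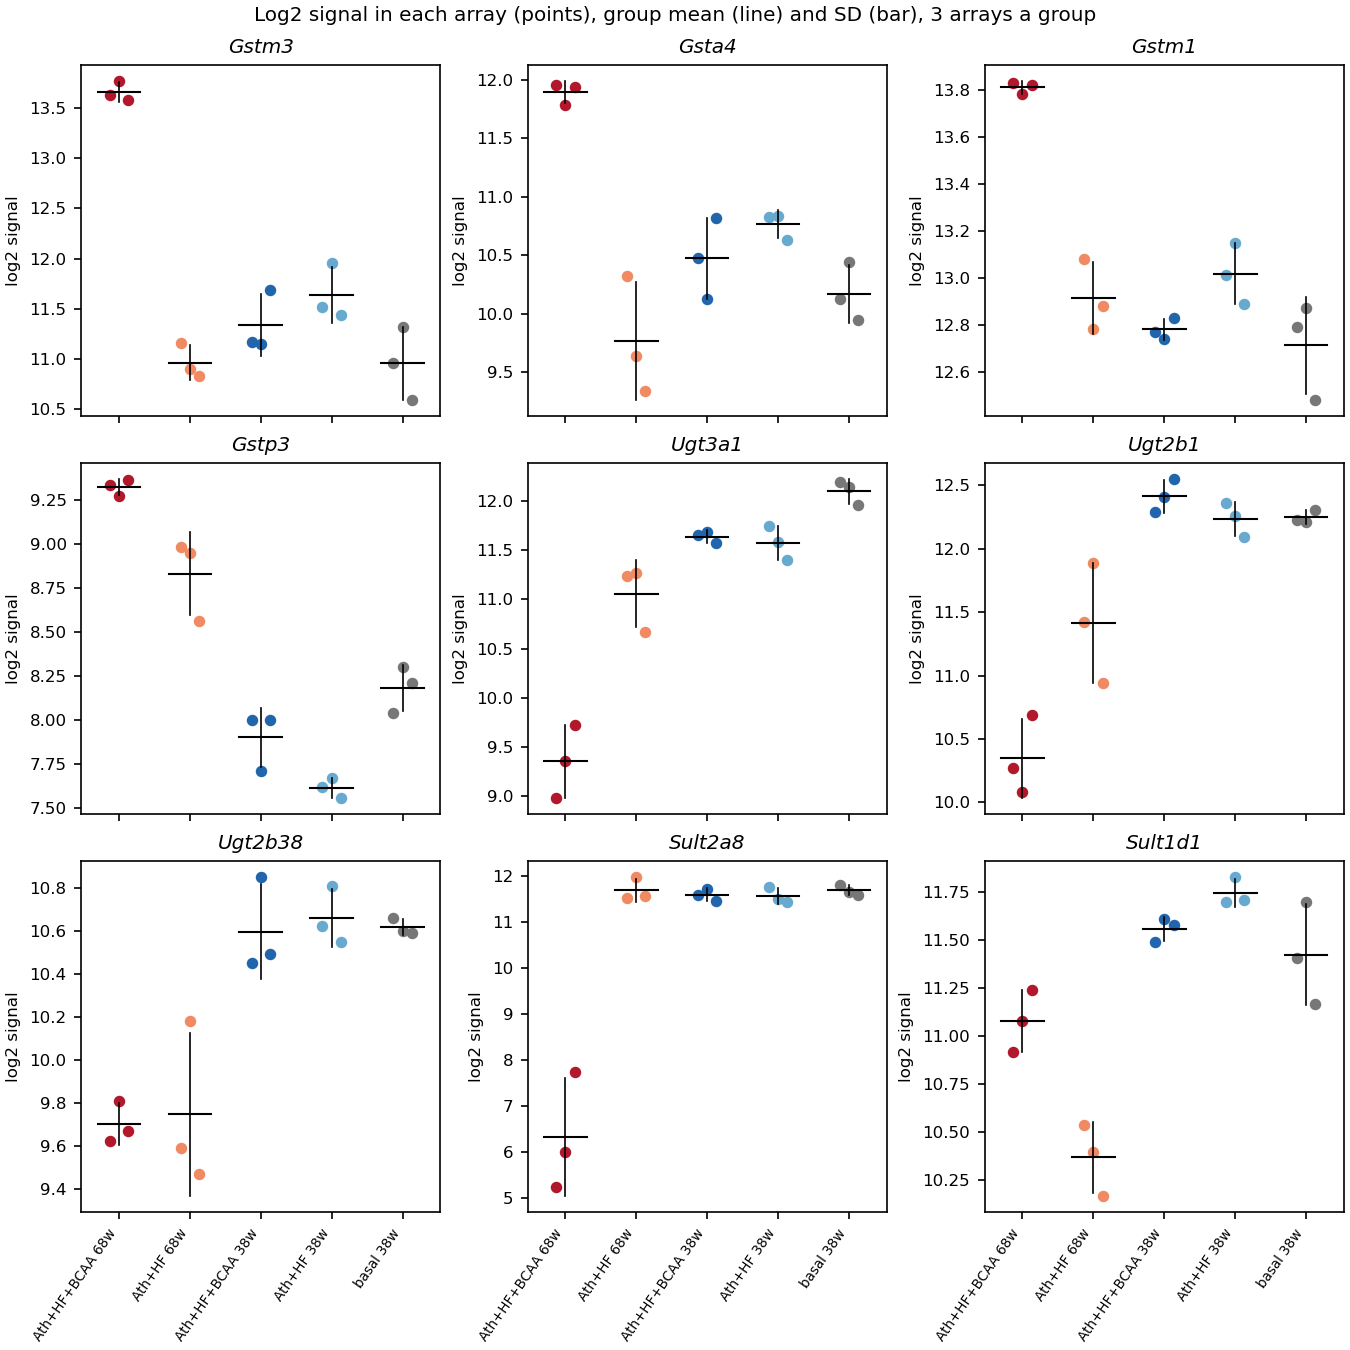
Log2 signal of 9 genes in each array (points), with the group mean (line) and SD (bar), 3 arrays per group and a separate scale for each gene. Gstm3, Gsta4 and Gstm1 are high and Ugt3a1, Ugt2b1 and Sult2a8 low in the Ath+HF+BCAA arrays of 68w, while Ugt2b38 is low and Gstp3 high in both 68w groups.

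Sult2a8, which sulfates bile acids in mouse liver, showed the largest difference of the 45 genes. It had 5.25, 6.00 and 7.74 with Ath+HF+BCAA and 11.52, 11.97 and 11.55 with Ath+HF at 68w. At 38w it had 11.59, 11.72 and 11.44 with Ath+HF+BCAA, 11.75, 11.50 and 11.42 with Ath+HF and 11.80, 11.65 and 11.59 with basal diet. The other 12 arrays lay within 11.42 to 11.97, and all 3 Ath+HF+BCAA arrays of 68w were far below them, spread with an SD of 1.28. The log2 fold change against Ath+HF was -5.35 (standard error 0.40, adjusted p = 6.9e-08 from limma). Array signals are compressed at the low end, so the size of this fall is uncertain, and the gene was called lower in every setting tried.

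Sult1d1, which acts on catecholamines and other phenols, had 10.92, 11.08 and 11.24 with Ath+HF+BCAA and 10.54, 10.40 and 10.17 with Ath+HF at 68w. The arrays of 38w gave 11.49, 11.61 and 11.58 with Ath+HF+BCAA, 11.70, 11.83 and 11.71 with Ath+HF and 11.41, 11.70 and 11.17 with basal diet. The Ath+HF group at 68w was lowest, 1.06 below basal diet (standard error 0.13, adjusted p = 5.18e-05 from limma), and the Ath+HF+BCAA group was 0.71 above it (standard error 0.13, adjusted p = 0.000539 from limma). Sult1e1, the estrogen sulfotransferase, is a dim gene here, with 5.52, 5.39 and 5.91 with Ath+HF+BCAA and 4.16, 3.89 and 3.99 with Ath+HF at 68w. Values of 38w were 6.76, 6.24 and 5.01 with Ath+HF+BCAA, 4.97, 5.26 and 4.76 with Ath+HF and 4.46, 5.12 and 5.30 with basal diet. The difference of the diets at 68w was 1.60 (standard error 0.33, adjusted p = 0.00122 from limma), and the Ath+HF+BCAA group at 68w did not pass the test against basal diet (0.65, adjusted p = 0.119 from limma).

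Sult1b1, a sulfotransferase of thyroid hormones, had 7.68, 7.72 and 8.46 with Ath+HF+BCAA and 8.50, 7.80 and 7.50 with Ath+HF at 68w. At 38w the log2 signals were 9.34, 9.37 and 9.27 with Ath+HF+BCAA, 9.06, 9.27 and 8.97 with Ath+HF and 8.95, 9.59 and 8.82 with basal diet. Every 68w array was below every 38w array, and the diets differed at 68w by 0.02 (95% confidence interval -0.51 to 0.55). Sult1a1, the main phenol sulfotransferase, read 10.51, 10.38 and 10.62 with Ath+HF+BCAA and 10.69, 10.45 and 10.64 with Ath+HF at 68w. Its arrays of 38w read 10.04, 10.15 and 9.98 with Ath+HF+BCAA, 9.96, 10.26 and 10.15 with Ath+HF and 10.17, 10.17 and 9.75 with basal diet. It was higher than basal diet in both 68w groups, by 0.47 with Ath+HF+BCAA (standard error 0.12, adjusted p = 0.00606 from limma) and by 0.56 with Ath+HF (standard error 0.12, adjusted p = 0.00292 from limma), and the first of these calls was lost with the array medians set equal. Sult1c2 had 7.64, 7.91 and 8.48 with Ath+HF+BCAA and 7.95, 7.97 and 6.90 with Ath+HF at 68w. Signals at 38w were 8.06, 8.28 and 7.80 with Ath+HF+BCAA, 8.05, 7.76 and 7.90 with Ath+HF and 8.71, 8.84 and 7.56 with basal diet. Its groups overlapped, and it passed no test in any comparison.

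Of the 16 Sult genes, 8 had a mean log2 signal under 6, near the dim end of the array. Sult4a1, a form known mainly from brain, had 6.19, 6.41 and 6.38 with Ath+HF+BCAA and 6.59, 6.66 and 6.45 with Ath+HF at 68w. The 38w arrays showed 6.14, 5.94 and 6.19 with Ath+HF+BCAA, 6.02, 6.35 and 6.12 with Ath+HF and 5.79, 6.05 and 6.10 with basal diet. It was above basal diet by 0.35 with Ath+HF+BCAA (standard error 0.12, adjusted p = 0.0258 from limma) and by 0.58 with Ath+HF (standard error 0.12, adjusted p = 0.00154 from limma) at 68w, and the first of these calls was lost under both other scalings. Sult1c1 had 4.91, 4.76 and 4.89 with Ath+HF+BCAA and 5.14, 5.17 and 5.55 with Ath+HF at 68w. At 38w the arrays read 4.73, 4.79 and 4.55 with Ath+HF+BCAA, 5.28, 5.05 and 4.85 with Ath+HF and 5.47, 5.24 and 4.94 with basal diet. It was called lower at 68w (-0.44, adjusted p = 0.0309 from limma), as was Sult5a1 (-0.41, adjusted p = 0.0458 from limma), and both calls were lost on leaving out any Ath+HF+BCAA array of 68w. Sult3a2 had 3.21, 2.87 and 3.03 with Ath+HF+BCAA and 3.05, 3.26 and 3.11 with Ath+HF at 68w. Log2 signals of 38w were 3.76, 3.72 and 3.98 with Ath+HF+BCAA, 3.25, 3.34 and 3.57 with Ath+HF and 4.04, 3.95 and 4.66 with basal diet. The basal diet group had the highest mean of Sult3a2, at the dim end of the array, and its arrays overlapped with those of Ath+HF+BCAA at 38w. Sult2a3, Sult2a6, Sult2b1, Sult3a1, Sult6b1 and Sult6b2 differed at 68w between -0.39 for Sult2a3 and 0.07 for Sult2a6, and none passed the test.

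The HNF1 core GTTAATNAT, part of the site of a hepatocyte factor, was in 3 windows of these genes, those of Sult1d1, Sult2a3 and Sult2a6, and in 0.801% of all windows. Their last 100 upstream bases are given with the core in capitals, on the minus strand of GRCm38.p6 at chr5:87569007-87569106, chr7:14123049-14123148 and chr7:14254871-14254970. That of Sult2a8, the gene with the largest fall, is given beside them for its first listed start site at chr7:14438552-14438651, and holds no such core.
Sult1d1: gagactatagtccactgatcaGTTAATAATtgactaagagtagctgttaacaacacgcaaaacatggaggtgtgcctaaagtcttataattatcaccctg
Sult2a3: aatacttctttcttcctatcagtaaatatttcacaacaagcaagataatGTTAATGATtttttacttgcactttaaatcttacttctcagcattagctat
Sult2a6: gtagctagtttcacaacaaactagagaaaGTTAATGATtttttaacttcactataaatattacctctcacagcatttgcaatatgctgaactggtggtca
Sult2a8: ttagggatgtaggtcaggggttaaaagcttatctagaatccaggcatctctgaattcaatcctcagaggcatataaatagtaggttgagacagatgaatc
The Sult2a3 and Sult2a6 windows were 70.2% identical, and both genes had mean log2 signals near 4.

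Genes that make the donors or move the conjugates were counted from 6 lists. Of 11 genes of glutathione supply and turnover, 5 were higher and 2 lower in the Ath+HF+BCAA group than in the Ath+HF group at 68w. The cystine importer Slc7a11 was at 8.45 ± 0.48 with Ath+HF+BCAA and 5.24 ± 0.15 with Ath+HF (SD, n = 3 each), higher by 3.21 log2 units (standard error 0.31, adjusted p = 9.76e-07 from limma). Its level with Ath+HF was under 6, at the compressed low end, so the size of this difference is uncertain, as is that of Slco1a1 below. Glutathione reductase Gsr rose by 0.72 (standard error 0.09) and glutathione synthetase Gss by 0.87 (standard error 0.12). Both subunits of glutamate-cysteine ligase, Gclm at 0.79 and Gclc at 0.84, were the other 2 higher genes, and Cbs and Glrx were the 2 lower ones. Of 6 genes of UDP-glucuronic acid supply and glucuronide removal, 3 were higher and 1 lower. Ugdh, which makes UDP-glucuronic acid, was at 12.38 ± 0.04 with Ath+HF+BCAA and 10.75 ± 0.12 with Ath+HF (SD, n = 3 each). Beta-glucuronidase Gusb rose by 1.01 (standard error 0.09). The 1 lower gene was Ces1d, a general carboxylesterase rather than a dedicated glucuronide enzyme, which fell by 1.28 (standard error 0.17). Of 7 genes of PAPS supply and sulfate removal, 4 were higher and 1 lower, among them the PAPS synthases Papss2 at 0.59 (standard error 0.12) and Papss1 at 0.62 (standard error 0.13), and the sulfatase Arsb at 0.38 (standard error 0.09).

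Of 13 conjugate transporters, 7 were higher and 4 lower at 68w. Abcc4, an efflux pump of the sinusoidal membrane, rose by 3.23 log2 units (standard error 0.14) and the drug efflux pump Abcb1a by 2.59 (standard error 0.16). Slco1a1, an uptake carrier of organic anions, was at 5.48 ± 0.76 with Ath+HF+BCAA and 11.08 ± 0.57 with Ath+HF (SD, n = 3 each). Of 19 other conjugating and related enzymes, 4 were higher and 5 lower. The prostaglandin D synthase Hpgds, itself a sigma class glutathione S-transferase, was at 2.63 (standard error 0.15). The glycine conjugating enzyme Glyat was at -0.91 (standard error 0.14). Ephx2, an epoxide hydrolase rather than a conjugating enzyme, was at -1.15 (standard error 0.11). Of 13 xenobiotic receptors and partners, 4 were higher and 5 lower, such as the bile acid receptor Nr1h4 at -0.88 (standard error 0.15), Rxra at -0.44 (standard error 0.08) and the aryl hydrocarbon receptor Ahr at 0.83 (standard error 0.18). Nfe2l2 was at 0.53 (standard error 0.12). All of these are to be read against the 36.2% of all genes called in this comparison.

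Neighbours on a chromosome differed in direction among the Ugt2 genes and in size among the mu class genes. In the order of the RefSeq table (GRCm38.p6), the mu class genes run Gstm5, Gstm7, Gstm6, Gstm3, Gstm2, Gstm1 and Gstm4, and their log2 fold changes at 68w between the diets were 0.44, 0.03, 0.80, 2.69, 1.37, 0.90 and 1.23 in this order. The largest was thus in the middle of the run, beside genes with smaller rises. The value of Gstm3 is that of its counted cluster, whose position was not settled. Its second cluster, numbered between those of Gstm6 and Gstm2, gave 4.99. On chromosome 5, Ugt2b34, Ugt2b1, Ugt2b35, Ugt2b36, Ugt2b5, Ugt2b37, Ugt2a3, Ugt2b38, Sult1b1, Sult1d1 and Sult1e1 follow one another among the 45 genes. Their log2 fold changes were 0.51, -1.07, 0.71, 0.34, -0.14, -0.07, -0.92, -0.05, 0.02, 0.71 and 1.60, so that Ugt2b1 fell between Ugt2b34 and Ugt2b35, which both rose.

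**Figure D4:**
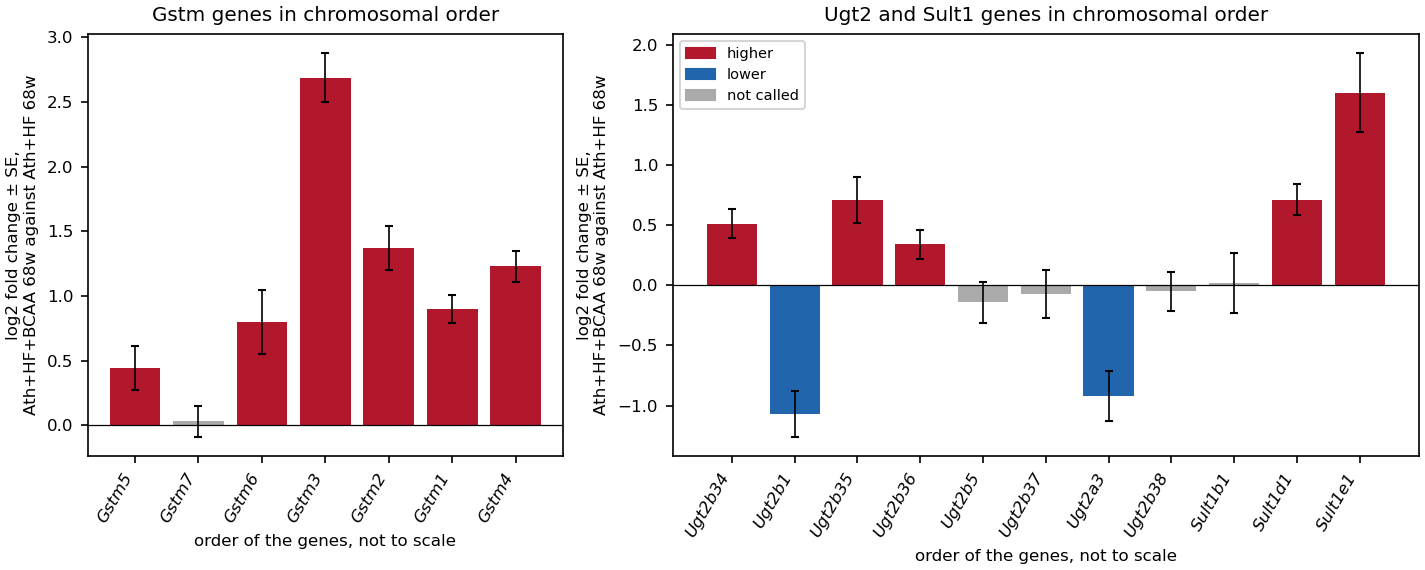
Log2 fold change between the Ath+HF+BCAA group and the Ath+HF group at 68w (bars, with the standard error), for the mu class genes and for the Ugt2 and Sult1 genes in chromosomal order, not to scale. Ugt2b1 at -1.07 stands between Ugt2b34 at 0.51 and Ugt2b35 at 0.71, and Gstm3 is drawn from its counted cluster.

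Both 68w groups were then set against the basal diet group of 38w, and these comparisons share the basal diet arrays. With Ath+HF+BCAA, 8 genes were higher and 16 lower, 53.3% of the 45 where 44.6% of all genes were called (22.9% higher and 21.8% lower). With Ath+HF, 4 were higher and 16 lower, 44.4% where 38.1% of all genes were called (19% higher and 19.1% lower). No Ugt gene was higher in either group, and 7 of 10 were lower with Ath+HF+BCAA (median -0.97) and 8 of 10 with Ath+HF (median -0.74), against medians of 0.01 and 0.05 over all genes. The Ugt count was 0 higher under each scaling. With Ath+HF+BCAA and Ath+HF in this order, 8 and 10 were lower with array medians equal and 7 and 8 after quantile normalization. Of all 19938 genes, 7057 and 6145 were lower with the medians equal and 4329 and 3990 after quantile normalization. As deposited, 4342 and 3812 were lower. Of the Gst genes, 6 were higher and 2 lower with Ath+HF+BCAA, with a median of 0.14 that turned to -0.05 with the array medians equal, and 2 were higher and 3 lower with Ath+HF (1 and 1 without its array 3). Of the Sult genes, 2 were higher and 7 lower with Ath+HF+BCAA, and 2 higher and 5 lower with Ath+HF.

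How many of all genes fall into the joint classes below was not counted, so the joint counts only list the members. Side by side, 11 genes were lower than basal diet in both 68w groups. These were Gstz1, the Ugt genes Ugt2b1, Ugt2b5, Ugt2a3, Ugt3a1, Ugt2b38 and Ugt2b37, and the Sult genes Sult1d1, Sult1b1, Sult3a1 and Sult3a2. Of these calls, that of Sult1d1 with Ath+HF+BCAA held in 15 of 25 settings and that of Sult3a1 with Ath+HF in 22 of 24. Higher in both were Gstp3, Sult1a1 and Sult4a1. Called higher with Ath+HF+BCAA and not called with Ath+HF were 5 genes, Gstm1, Gstm3, Gstm4, Gsta4 and Gstm2, and each also differed between the 68w groups as given above. Called lower with Ath+HF+BCAA and not with Ath+HF were Gstk1, Ugt3a2, Sult2a8, Sult5a1 and Sult6b1, of which Sult6b1 did not pass the test between the 68w groups. Called lower with Ath+HF and not with Ath+HF+BCAA were Gsta3, Gstm6, Ugt2b36, Ugt2b34 and Sult1e1, of which Gsta3 did not pass that test, and Gstt2 was higher with Ath+HF alone without passing it. The calls against basal diet of Gstm6 held in 18 of 25 settings, of Sult1e1 in 18 of 24, of Gstt2 in 20 of 25, of Sult5a1 in 21 of 25 and of Sult6b1 in 22 of 24. The other 15 genes were called in neither. With the array medians set equal, the median of all genes moved to -0.18 with Ath+HF+BCAA and to -0.14 with Ath+HF. The calls became 6 higher and 24 lower with Ath+HF+BCAA, where 2781 of all 19938 genes were higher and 7057 lower.

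**Figure D5:**
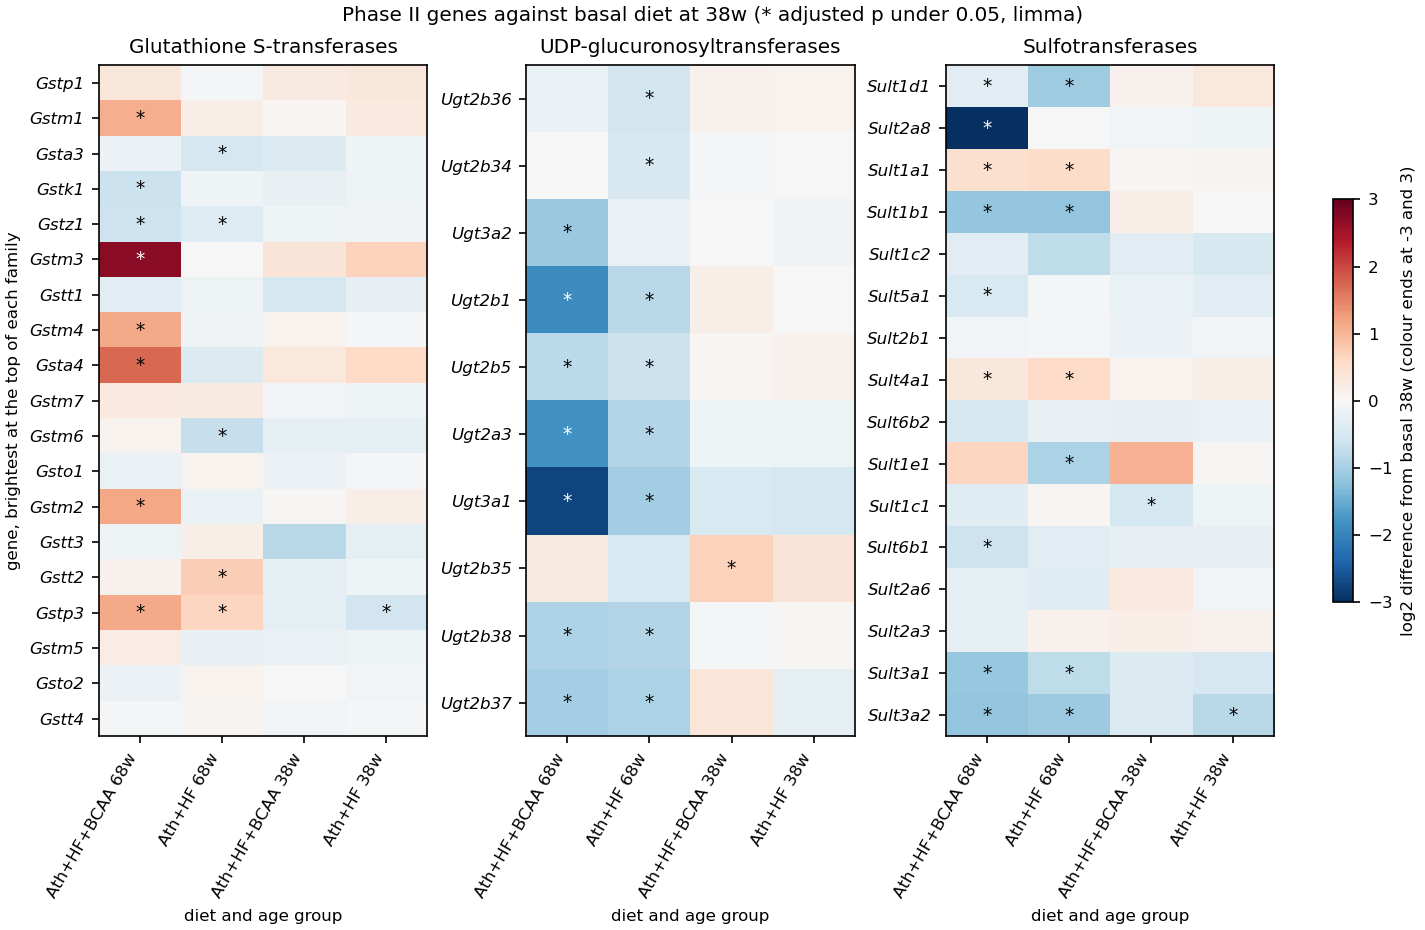
Log2 difference of each gene from the basal diet group of 38w in the 4 Ath+HF groups (colour, which ends at -3 and 3), with genes called at an adjusted p under 0.05 marked by a star and families apart. The Ugt panel is mostly blue in both 68w columns, where 7 and 8 of 10 genes were lower, and the 38w columns hold 4 stars in all.

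Age was compared within each diet as labelled. With Ath+HF+BCAA, 8 genes rose and 16 fell between 38w and 68w, 53.3% of the 45 where 38.8% of all genes were called (20.5% higher and 18.3% lower). With Ath+HF, 5 were higher and 15 lower, 44.4% where 37.6% of all genes were called (17.6% higher and 20% lower). Ugt genes fell in both, 8 of 10 with Ath+HF+BCAA (log2 fold changes over the 10 genes of -2.29 to 0.06) and 9 of 10 with Ath+HF (-0.91 to -0.08, median -0.72), and none rose. Ath+HF array 3 of 68w was the lowest of its group in all 10 Ugt genes, and without it 6 of 10 were called lower with Ath+HF (median -0.56), the calls of Ugt2a3, Ugt2b37 and Ugt3a1 being lost. Ugt3a2 was the exception with Ath+HF, at -0.08 (95% confidence interval -0.37 to 0.20), whereas it fell by 1.10 with Ath+HF+BCAA (standard error 0.13, adjusted p = 1.54e-05 from limma). In the mu class, Gstm3 rose by 2.32 (standard error 0.19, adjusted p = 4.81e-07 from limma) with Ath+HF+BCAA, while with Ath+HF it fell by 0.68 (standard error 0.19, adjusted p = 0.0112 from limma), a call lost without Ath+HF array 2 of 38w. Gsta4 rose by 1.42 (standard error 0.21, adjusted p = 0.000101 from limma) with Ath+HF+BCAA and fell with Ath+HF, with means of 9.77 ± 0.50 at 68w and 10.77 ± 0.12 at 38w (SD, n = 3 each; standard error of the difference 0.21, adjusted p = 0.00212 from limma). Gstp3 rose with both, by 1.42 (standard error 0.12, adjusted p = 7.49e-07 from limma) with Ath+HF+BCAA and by 1.21 (standard error 0.12, adjusted p = 5.36e-06 from limma) with Ath+HF. Macrophage marker sums fell with age in the Ath+HF group and 10 of 11 markers were lower, while 5 of 11 were higher in the Ath+HF+BCAA group, and their part was not tested.

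At 38w, no gene was called between the Ath+HF+BCAA group and the Ath+HF group, neither among the 45 nor among all genes (0%). At an unadjusted p under 0.05 there were 5 of the 45 (11.1%), where 7.66% of all genes passed, and the lowest adjusted p was 0.524 (limma). The 95% confidence intervals lay within 1 log2 unit of 0 for 42 of the 45 genes, and over all 45 they spanned -1.11 to 1.70. Sult1e1 had the largest difference, 1.01 (95% confidence interval 0.31 to 1.70), which rested on 2 of 3 Ath+HF+BCAA arrays. The test of the difference between the BCAA comparison at 68w and that at 38w called 14 of the 45 genes (31.1%, where 20.6% of all genes were called, 12.9% with a positive and 7.67% with a negative value), 8 with a positive and 6 with a negative value.

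Against basal diet at 38w, Ath+HF+BCAA gave 1 higher gene, Ugt2b35 at 0.69 (standard error 0.19, adjusted p = 0.0417 from limma), and 1 lower, Sult1c1 at -0.53 (standard error 0.15, adjusted p = 0.0495 from limma), where 5.49% of all genes were called (3.67% higher and 1.82% lower). Both calls were lost under most other settings. Ath+HF gave 2 lower genes and no higher one, where 4.23% of all genes were called (3.05% higher and 1.18% lower). These were Gstp3 at -0.57 (standard error 0.12, adjusted p = 0.013 from limma), the same gene that was above basal diet in both 68w groups, and the dim Sult3a2 at -0.83 (standard error 0.16, adjusted p = 0.00727 from limma). Gstm3 and Gsta4 were 0.68 and 0.60 above basal diet with Ath+HF at 38w, without passing the test (adjusted p = 0.0535 and 0.143 from limma). With the 38w arrays fitted alone, a setting chosen after seeing the data, 1 gene was called with Ath+HF+BCAA and 3 with Ath+HF against basal diet, and 0 between them. In each of these comparisons with basal diet, 8 of 11 macrophage markers were higher, and their part was not tested.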

How the data were processed

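Liver RNA was measured on 15 GeneChip Mouse Gene 1.0 ST arrays, 3 per group. The deposited values are log2 signals per transcript cluster, made by the authors with RMA in Affymetrix Expression Console (version not given in the sources used here), which removes background, quantile-normalizes the arrays and summarizes probes, so differences between arrays are relative and small folds are compressed. No genome build is named for the files. Of 35556 clusters, 21789 carried 1 gene symbol in the platform annotation, 1621 several and 12146 none. Genes with several clusters (999) were read from the cluster with the highest mean, which left 19938 genes. Samples were grouped by their labels. Whether the arrays of a group came from separate mice is not stated, so p-values measure the spread between arrays, which limits the precision with 3 per group.

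A model with 1 mean per group was fitted to all 15 arrays with limma 3.58.1 in R 4.3.3 (lmFit and eBayes), with Benjamini-Hochberg adjustment over all genes and calls at an adjusted p under 0.05. There were 8 comparisons of groups and 1 test of the difference of the BCAA comparisons at 68w and 38w. Transcript clusters shared by several genes were fitted among all clusters. The procedure was tested on simulated data. All 45 Entrez identifiers matched RefSeq (GRCm38.p6), which gave neighbours and promoter windows. Sequences were aligned with Biopython 1.88, and figures drawn with matplotlib 3.10.9. The family members and gene lists were chosen with earlier results of these data known. Genes given array by array were, in each family, the 5 with the highest mean signal, the 3 with the largest called change in each direction of a comparison whose groups did not overlap, and those whose clusters disagreed in sign, 30 in all. Other members are given by means, counts and ranges, and of each pathway list the 3 genes with the smallest p between the diets at 68w, while further genes of the lists were named after their values were seen. Alternatives were other cluster choices, filters, scalings, model settings, the replicate number as a block, each array left out and the analysis of variance of the study's methods, and the 38w arrays alone were fitted as an alternative chosen after seeing the data. Other assays and the protein sequences were not analysed here.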

Additional observations from a re-analysis of the deposited data

Results flagged for a closer look

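In 14 genes the difference between the Ath+HF+BCAA group and the Ath+HF group at 68w was not the same as that at 38w, by limma's test of the difference between both comparisons. The value is the log2 fold change at 68w minus that at 38w. It was positive for the mu class genes Gstm3 at 3.00 (adjusted p = 1.8e-06), Gstm2 at 1.54 (adjusted p = 0.000252), Gstm1 at 1.13 (adjusted p = 0.000101) and Gstm4 at 1.06 (adjusted p = 0.000293). It was also positive for the alpha class genes Gsta4 at 2.42 (adjusted p = 3.58e-05) and Gsta3 at 0.62 (adjusted p = 0.0377), and for Sult1d1 at 0.90 (adjusted p = 0.00268) and Ugt2b34 at 0.53 (adjusted p = 0.0295). It was negative for Sult2a8 at -5.38 (adjusted p = 7.73e-06), for Ugt3a1 at -1.77 (adjusted p = 0.000112), Ugt2b1 at -1.25 (adjusted p = 0.00358), Ugt3a2 at -1.02 (adjusted p = 0.0011) and Ugt2a3 at -0.95 (adjusted p = 0.0352), and for Gstk1 at -0.45 (adjusted p = 0.0445). No gene was called between these diets at 38w. The call of Gstk1 held in only 11 of 25 settings, that of Gsta3 in 13, that of Ugt2a3 in 16 and that of Ugt2b34 in 18. All of these values take their direction from the labels of the 68w arrays. No formal test for single arrays that stand apart was run, though each array was left out in turn and array weights were among the settings.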

How the results depend on the processing

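Of 128 calls of a family member in a comparison, 90 held in every setting tried, 38 were lost in at least 1 and 0 changed direction. Leaving out 1 array at a time gave 17 to 24 calls between the Ath+HF+BCAA and Ath+HF groups at 68w (22 with all arrays) and 0 to 0 at 38w. It gave 21 to 27 between 68w and 38w with Ath+HF+BCAA and 15 to 22 with Ath+HF. Against basal diet it gave 22 to 26 for Ath+HF+BCAA 68w, 16 to 22 for Ath+HF 68w, 0 to 3 for Ath+HF+BCAA 38w and 2 to 3 for Ath+HF 38w, and 10 to 15 for the difference of the BCAA comparisons. The analysis of variance with Bonferroni's method at the study's limits on fold and p gave 9 calls between the diets at 68w (6 higher and 3 lower). It gave 13 between the ages with Ath+HF+BCAA and 4 with Ath+HF, and against basal diet 15 for Ath+HF+BCAA 68w, 5 for Ath+HF 68w, 0 for Ath+HF+BCAA 38w and 0 for Ath+HF 38w. For Ath+HF 38w against basal diet, the groups compared alone gave 1 call. For Ath+HF+BCAA 38w against basal diet, 2 calls became 0 with all transcript clusters tested or the groups compared alone, and 1 without dim genes, with array medians equal, with quantile normalization, with trend and robust estimates, with array weights, or with the 38w arrays alone. With array medians equal, the calls of 68w against 38w became 6 higher and 20 lower with Ath+HF+BCAA and 3 higher and 18 lower with Ath+HF. Of all 19938 genes, 2272 were then higher and 5659 lower with Ath+HF+BCAA, and 1656 higher and 5244 lower with Ath+HF. The groups compared alone gave 15 higher and 14 lower between the diets at 68w. No shared deviation was seen between samples of equal replicate number. Deviations from the group means correlated by -0.16 to 0.18 (median 0.00) over 30 pairs of equal number and by -0.19 to 0.20 over 60 others. Such values cannot show whether the numbers pair the samples. With the replicate number as a block, the calls were 20 between the diets at 68w, 0 at 38w, 20 and 26 between the ages with Ath+HF and Ath+HF+BCAA, and against basal diet 24 for Ath+HF+BCAA 68w, 21 for Ath+HF 68w, 1 for Ath+HF+BCAA 38w and 2 for Ath+HF 38w, with 12 for the difference of the BCAA comparisons. The cause of these shifts was not tested. Apart from both other scalings, the share of all genes called under each alternative was not counted. Signal over background limits the 9 genes with a mean log2 signal under 6.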
